A study of Mus musculus with 6 samples.

Results

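A set of 10 genes that mark brain blood vessels was followed through ribosome-bound RNA of the mouse cerebral cortex. They comprised 5 genes of the vessel wall (Vtn, Acta2, Tagln, Rgs5 and Pdgfrb) and 5 of the endothelium (Cldn5, Pecam1, Flt1, Tek and Kdr). Every probe set that the platform annotation assigned to 1 of these symbols alone was taken, which gave 20 of the 45037 probe sets used, 12 for the wall and 8 for the endothelium, and 10 of the 18193 genes with a probe set of their own. The RNA came from mice of the S100a10 bacTRAP line ES691, in which the control region of S100a10 drives a tagged ribosomal protein, so that RNA under translation in the tagged cells can be purified by way of their ribosomes (translating ribosome affinity purification, TRAP). All mice carried the transgene, which had been moved by 3 to 5 generations of backcrossing onto C57BL/6 from an FVB background. The 3 fluoxetine samples came from mice that drank 0.167 mg/ml of fluoxetine, a serotonin reuptake inhibitor, with 1% saccharine for 15 to 18 days, and the 3 vehicle samples from mice that drank 1% saccharine alone. The age of the mice, and whether a sample held 1 animal or several, are not given in the sources used here. The submitters state that the S100a10 transgene also labels some cells that are not neurons. Untagged whole-cortex RNA was not analysed here, so the values below are levels in TRAP RNA and not enrichments over the tissue.

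Brain capillaries are tubes of endothelial cells joined by tight junctions and wrapped in pericytes, and arterioles carry smooth muscle in place of pericytes. Pericytes and smooth muscle are together called mural cells, here the vessel wall. Endothelial cells recruit pericytes by releasing PDGF-B, which binds the receptor Pdgfrb on the pericyte. They respond themselves to VEGF through Kdr and Flt1 and to angiopoietins through Tek. Acta2 and Tagln are contractile genes switched on by serum response factor (SRF), which binds a DNA motif called the CArG box.

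The values were intensities normalized with GCRMA by the authors, taken to log2, and a probe set was tested where the geometric mean of its 6 values reached 50. Array medians ran from 47.3 to 48.6 in intensity, and correlations between arrays over tested probe sets from 0.980 to 0.992. Of 14 measured markers of cortical excitatory neurons, S100a10 among them, all 14 passed the filter. So did 17 of 17 of astrocytes and 14 of 15 of meningeal fibroblasts. For oligodendrocytes 10 of 12 passed, for microglia 7 of 12 and for blood cells 1 of 7. The vascular markers passed in part. All 5 wall genes and 3 of the 5 endothelial genes had a probe set past the filter (11 of the 20 probe sets), and Pecam1 and Tek did not. Among further markers, 9 of 16 of pericytes, 15 of 20 of contractile cells and 27 of 37 of endothelium passed. Those below it included genes that are often used to define these cells, named here after their values were seen: Kcnj8 (17.3 to 27.2 in intensity over the 6 arrays), Abcc9 (20.8 to 33.1), Notch3 (25.7 to 36.6), Myh11 (11.2 to 14.2), Cnn1 (7.30 to 12.1), Tie1 (6.06 to 6.55) and Emcn (9.52 to 9.89). The 10 genes are therefore called vessel wall and endothelial markers after their list, and whether each one's RNA came from mural or endothelial cells was not tested. In such a bulk sample, fewer cells of a type and less RNA per cell cannot be told apart. Since the affinity of probe sets differs, levels of different genes were not ranked against each other.

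The promoter of Acta2, a contractile gene known to be driven through CArG boxes, is shown as the 250 bases before the gene's start (RefSeq, GRCm38.p6, chr19:34255374-34255623, minus strand, written 5′ to 3′). Capitals mark CArG-like boxes, which are CArG boxes with 1 core position that is C or G in place of A or T.

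Acta2: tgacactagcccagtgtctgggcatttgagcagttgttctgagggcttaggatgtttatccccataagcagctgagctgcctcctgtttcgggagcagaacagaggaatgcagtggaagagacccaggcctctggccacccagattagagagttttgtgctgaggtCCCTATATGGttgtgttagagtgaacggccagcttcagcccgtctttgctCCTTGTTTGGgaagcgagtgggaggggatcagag

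They begin 84 and 34 bases before the start. The pattern reads the same on both strands. A CArG box with an intact core was found in 0 of the 7 members whose promoters matched the RefSeq table, against 1.47% of all 32851 promoter windows of this length. The form with 1 changed core position, searched after the intact form gave no match, was found in 2 of the 7, Acta2 and Kdr (236 bases before the start), against 7.24% of all windows. CAGGAA, a core bound by ETS factors, searched on both strands, was found in Rgs5 and Tek, against 25.7% of windows. These matches are a description of the letters only. Promoters of Tagln, Pecam1 and Pdgfrb were not used here.

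The first comparison asked whether prolonged fluoxetine shifted the vessel wall markers. All 5 wall genes had a lower mean with fluoxetine, with differences of −0.59 to −0.22 on the log2 scale (their brightest probe sets), and 0 of the 11 tested member probe sets passed limma's test at an adjusted p under 0.05. Over all 22326 tested probe sets the share called was 0%, with a smallest adjusted p of 0.999. At an unadjusted p under 0.05 there was 1 member probe set, that of Vtn, lower, where 2.52% of all tested probe sets reached that level, 1.78% lower and 0.739% higher. Those 398 lower and 165 higher probe sets became 209 and 267 after quantile normalization and 170 and 327 after a shift of the arrays to a common median, and all 5 wall genes stayed lower under both. A lower fluoxetine mean was common: it held for 66.3% of tested probe sets, and the median difference of all tested genes was −0.06.

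Vtn encodes vitronectin, an adhesive protein of the extracellular matrix and the plasma that pericytes of the brain make in quantity. Its brightest probe set measured 11.61, 11.80 and 11.63 on fluoxetine arrays 1, 2 and 3 and 11.83, 12.12 and 12.32 on vehicle arrays 1, 2 and 3 (log2 intensity). Every fluoxetine array lay below every vehicle array, though fluoxetine 2 and vehicle 1 were close. This was the only 1 of the 11 tested member probe sets whose groups did not overlap, where 8.05% of all tested probe sets had such groups, 5.23% with fluoxetine lower and 2.83% with it higher. The difference was −0.41 ± 0.15 (SE; fold 0.753), with a 95% interval of −0.77 to −0.05, an unadjusted p of 0.030 and an adjusted p of 0.999 in limma. The second probe set of Vtn measured 9.53, 9.72 and 9.25 with fluoxetine and 9.61, 9.95 and 10.39 with vehicle. It too was lower (−0.48 ± 0.22, SE), but fluoxetine 2 lay above vehicle 1. Without vehicle 3 the differences of these probe sets were −0.29 and −0.28.

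Acta2 encodes the actin of smooth muscle. It read 10.39, 11.35 and 11.10 with fluoxetine and 11.16, 11.36 and 12.10 with vehicle (log2 intensity). The groups overlapped: fluoxetine 1 was the lowest array and vehicle 3 the highest, and the other 4 lay within a narrow band. The difference was −0.59 ± 0.32 (SE), with a 95% interval of −1.34 to 0.16. Without fluoxetine 1 it was −0.31, without vehicle 3 it was −0.31, and without both it was −0.03. The other probe sets of Acta2 stayed between 5.12 and 5.97 in intensity on all arrays, well under the filter.

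Tagln encodes transgelin, an actin-binding protein of smooth muscle. It measured 8.80, 10.11 and 9.90 with fluoxetine and 9.96, 10.23 and 10.37 with vehicle (log2 intensity). Fluoxetine 1 stood apart from the other 5 arrays, and fluoxetine 2 lay above vehicle 1. The difference was −0.58 ± 0.33 (SE), with a 95% interval of −1.36 to 0.20, and −0.18 without fluoxetine 1. Acta2 and Tagln thus had their lowest value on the same array.

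Rgs5, a regulator of G protein signalling that is abundant in pericytes, read 7.43, 7.59 and 7.48 with fluoxetine and 7.47, 7.80 and 7.90 with vehicle (log2 intensity). The 3 fluoxetine arrays lay close together beside vehicle 1, below vehicle 2 and 3. The difference was −0.22 ± 0.14 (SE; 95% interval −0.56 to 0.12), and it was −0.13 without vehicle 3 and −0.35 without vehicle 1. Its second tested probe set differed by −0.10 ± 0.18, with fluoxetine 1 the highest array, and 2 others stayed under the filter.

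Pdgfrb, the receptor through which endothelial PDGF-B holds pericytes on the vessel, measured 10.81, 10.76 and 10.51 with fluoxetine and 10.51, 11.08 and 11.24 with vehicle (log2 intensity). Vehicle 1 lay with the lowest fluoxetine array, and vehicle 2 and 3 lay above all others. The difference was −0.25 ± 0.20 (SE; 95% interval −0.73 to 0.23). It was −0.47 without vehicle 1 and −0.11 without vehicle 3. Its second probe set differed by 0.02 ± 0.15.

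**Figure D1:**
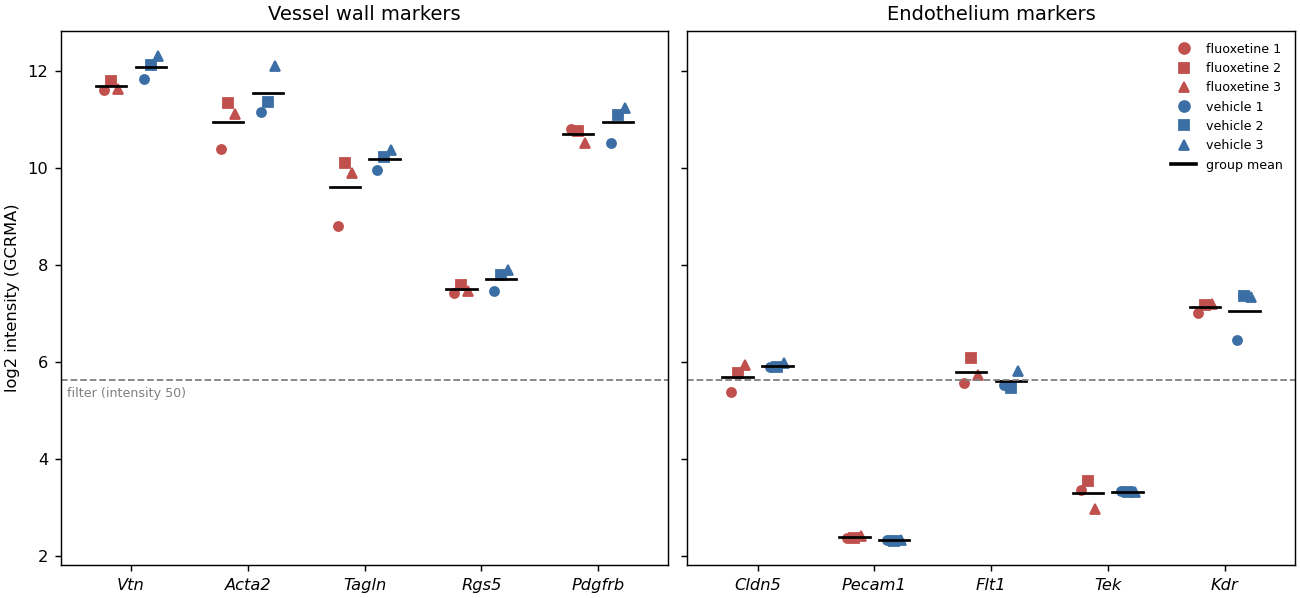
Log2 intensity of each member on each of the 6 arrays (brightest probe set of each gene; red for fluoxetine, blue for vehicle, symbols for replicates 1 to 3, bars for group means; the dashed line is the filter at an intensity of 50). The fluoxetine mean lies below the vehicle mean for all 5 wall genes, and of these 5 only Vtn has groups that do not overlap, while Pecam1 and Tek lie far under the filter.

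The endothelial markers were dim and showed no common direction. Over the 5 genes the median difference was 0.07 on the log2 scale, against −0.41 for the wall, and 2 of the 5 were lower with fluoxetine. That median was the value of Pecam1, and Tek was 1 of the 2 lower genes, and both lay under the filter. Of the 3 that were tested, 1 was lower, and their median difference was 0.08. None passed limma's test, and none of the 3 had groups that did not overlap.

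Kdr, the main signalling receptor for VEGF, measured 7.02, 7.19 and 7.20 with fluoxetine and 6.47, 7.36 and 7.34 with vehicle (log2 intensity). The fluoxetine arrays lay between vehicle 1, the lowest array, and the other two vehicle arrays. The difference was 0.08 ± 0.25 (SE; 95% interval −0.49 to 0.66), and −0.21 without vehicle 1. Flt1, a VEGF receptor that also acts as a decoy for the ligand, read 5.58, 6.10 and 5.74 with fluoxetine and 5.53, 5.46 and 5.83 with vehicle on its only tested probe set, which is close to the filter. The groups overlapped, and the difference was 0.20 ± 0.17 (SE; 95% interval −0.21 to 0.60). It was 0.05 without fluoxetine 2 and 0.31 without either fluoxetine 1 or vehicle 3. The 3 other Flt1 probe sets lay between 8.60 and 32.9 in intensity.

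Cldn5, the main claudin of the tight junctions of brain endothelium, measured 5.40, 5.77 and 5.94 with fluoxetine and 5.91, 5.90 and 5.98 with vehicle (log2 intensity). Only fluoxetine 1 stood apart, and fluoxetine 3 lay above 2 of the vehicle arrays. The difference was −0.23 ± 0.16 (SE; 95% interval −0.60 to 0.14), and −0.07 without fluoxetine 1. Pecam1, an adhesion molecule at endothelial cell contacts, was listed at 5.21, 5.21 and 5.39 in intensity with fluoxetine and 5.06, 5.01 and 5.04 with vehicle on its single probe set. The fluoxetine values were all above the vehicle values, by a log2 difference of 0.07. Below the filter, 72.6% of probe sets had the higher mean with fluoxetine, so this direction was the common one at such levels. Tek, the angiopoietin receptor also known as Tie2, read 10.3, 11.8 and 7.90 in intensity with fluoxetine and 10.2, 9.97 and 10.1 with vehicle. These 2 genes were not tested.

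**Figure D2:**
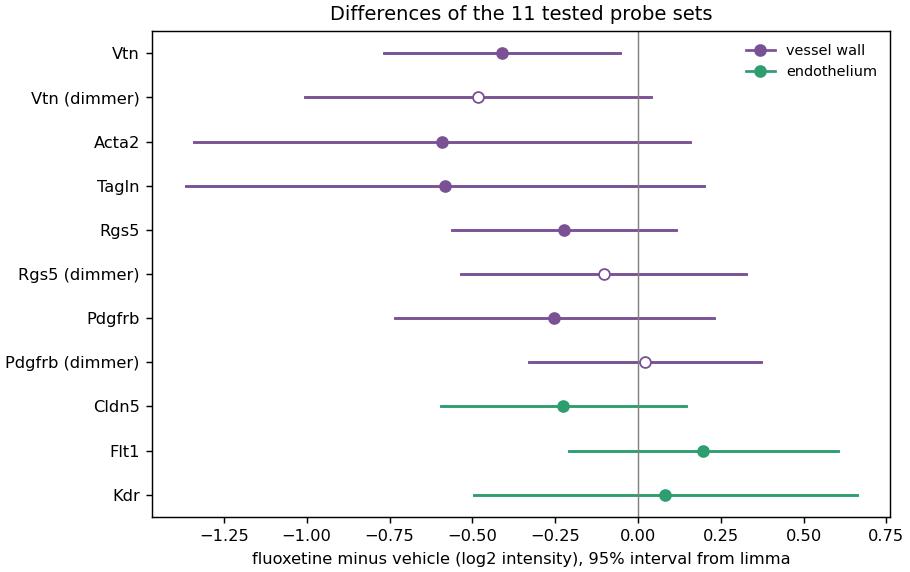
Difference between fluoxetine and vehicle on the log2 intensity scale (horizontal axis) with its 95% interval from limma for the 11 tested probe sets (purple for the wall, green for the endothelium, open points for a dimmer probe set of the same gene). The intervals of all but the brightest Vtn probe set include 0, and the wall estimates lie at −0.59 to 0.02.

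The wall was then set against the endothelium array by array. Each gene's deviation from its own mean over the 6 arrays was averaged over the 5 genes of a class. The wall means were −0.48, 0.03 and −0.17 on fluoxetine arrays 1, 2 and 3 and −0.11, 0.23 and 0.50 on vehicle arrays 1, 2 and 3 (log2). The endothelial means were −0.11, 0.14 and 0.00 with fluoxetine and −0.14, 0.01 and 0.10 with vehicle. Both classes overlapped between groups. The wall means had SDs of 0.26 with fluoxetine and 0.30 with vehicle, and the endothelial means 0.13 and 0.12. Over the 3 endothelial genes past the filter these SDs were 0.19 and 0.21, closer to those of the wall. Wall minus endothelium was −0.37, −0.11 and −0.17 with fluoxetine and 0.04, 0.21 and 0.39 with vehicle, which did not overlap, with group means of −0.21 ± 0.14 and 0.21 ± 0.18 (SD, n = 3 each). The difference between groups was −0.43, and −0.26 without fluoxetine 1 and vehicle 3. Since the genes were chosen with results known, no p is given for it. Cldn5 and Flt1 lay close to the filter and Pecam1 and Tek below it.

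Within the wall, the brightest probe sets had their extremes on some of the same arrays. Each array belongs to 1 group, so an order by array and an order by group cannot be told apart. All 5 genes had their highest value on vehicle 3, and 4 of the 5 their lowest on fluoxetine 1, the exception being Pdgfrb. The dimmer tested probe sets departed from this: that of Vtn was lowest on fluoxetine 3, that of Rgs5 highest on fluoxetine 1 and that of Pdgfrb highest on vehicle 2. On vehicle 2 all 5 also lay above their own means, and on vehicle 1 only Tagln did. The contractile pair, Acta2 and Tagln, averaged −0.97 on fluoxetine 1 and 0.67 on vehicle 3. For Vtn, Rgs5 and Pdgfrb, the genes known from pericytes, those means were −0.16 and 0.38. Over the 3 fluoxetine arrays the pericyte genes spread little (SD 0.09) and the contractile pair widely (SD 0.60). The vehicle arrays showed no such contrast (SD 0.28 and 0.34).

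**Figure D3:**
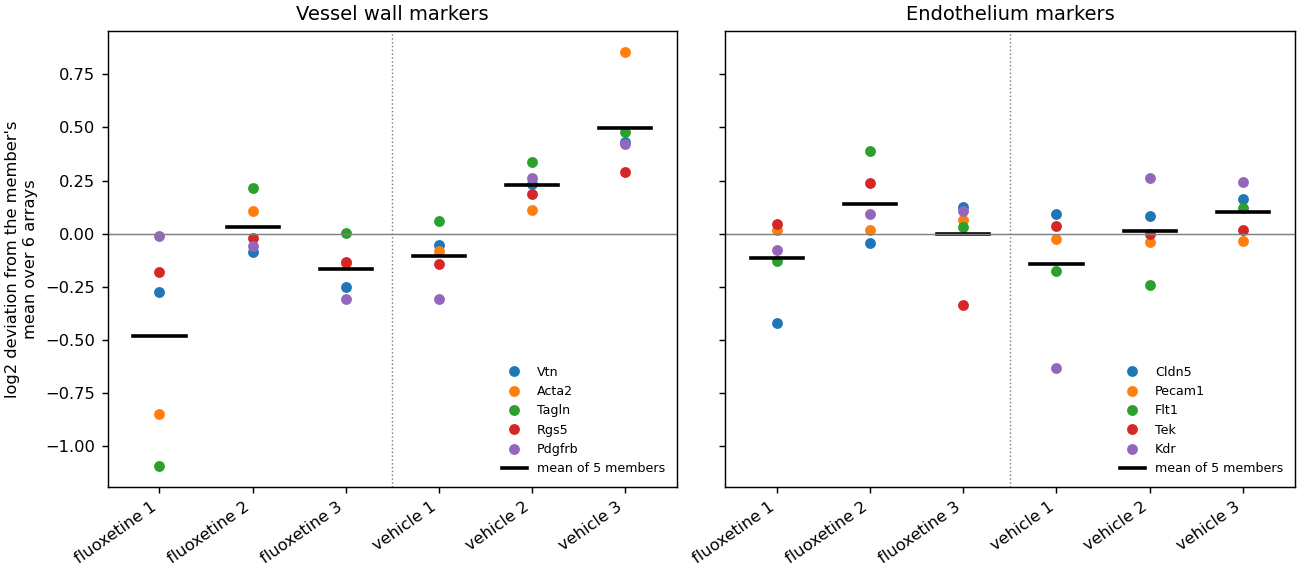
Deviation of each member from its own mean over the 6 arrays (vertical axis, log2; colours for genes, black bars for the mean of the 5 genes of a class). Acta2 and Tagln fall far below the other wall genes on fluoxetine 1, all 5 wall genes peak on vehicle 3, and the endothelial means stay between −0.14 and 0.14.

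Markers of other cells differed on the same arrays. Of 17 tested astrocyte markers, 10 had their highest value on fluoxetine 1 and 2 on vehicle 3. The summed intensity of that list ran from 116662 to 148612 with fluoxetine and from 115674 to 130032 with vehicle, and its median difference was 0.09, or 0.01 without fluoxetine 1. Its 4 genes with the smallest p were Sox9 (0.58), Gfap (3.34, from 12.13, 4.49 and 9.02 against 4.71, 5.24 and 5.67), Aqp4 (0.66) and Gja1 (−0.15). Without fluoxetine 1, Sox9 differed by 0.52, Gfap by 1.55, Aqp4 by 0.19 and Gja1 by −0.14. Sox9 had every fluoxetine array above every vehicle array, as had 2.83% of all tested probe sets. Its difference ran from 0.52 to 0.63 with any 1 array left out (unadjusted p = 0.0011, adjusted p = 0.999 in limma). Of the 17 astrocyte markers, 7 were lower in the main fit. With quantile scaling 2 were (median 0.17), and with median scaling 3 were (median 0.15). Of 14 markers of meningeal fibroblasts, 6 were highest on fluoxetine 1 and 4 on vehicle 3, with 7 lower with fluoxetine, a median of 0.00 and summed intensities of 124181 to 133949 against 125702 to 143603. The first by p were Col1a1 (0.75), Igf2 (−0.45), Col3a1 (0.58) and Lum (0.48), of which Col1a1 was 0.48 and Lum 0.23 without fluoxetine 1. Nuclear and non-coding transcripts had a median deviation of −0.32 on fluoxetine 1 and −0.11 on vehicle 3. They summed to 885 to 1549 with fluoxetine against 965 to 2020 with vehicle (5 of 6 lower, median difference −0.21, Miat −0.31). That median was −0.01 without fluoxetine 1 and −0.39 without vehicle 3, and 4 of the 6 were lower after either scaling. The part of these lists in the wall values was not tested.

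Markers of neurons, microglia, oligodendrocytes and blood were also read on the same scale. Cortical excitatory neuron markers summed to 207625 to 228323 with fluoxetine and 215606 to 233185 with vehicle (12 of 14 lower, median −0.05, and −0.02 without fluoxetine 1; Crym −0.30, and −0.20 without it). After quantile normalization 6 of the 14 were lower, with a median of 0.01. Of 7 tested microglia markers 1 was lower (median 0.18, and 0.10 without fluoxetine 1; C1qa 0.24, and 0.04 to 0.40 with 1 array left out), of 10 oligodendrocyte markers 6 (median −0.12, and −0.26 without fluoxetine 1; Ugt8a −0.41, and −0.75 to −0.10 with 1 array left out), and of the blood cell markers only Cd79a was tested (0.00, and −0.32 to 0.21 with 1 array left out). The summed intensities were 1910 to 2616 against 1646 to 2243 for microglia and 17312 to 29138 against 24368 to 26586 for oligodendrocytes. The oligodendrocyte low was on fluoxetine 2, where 6 of the 10 markers had their lowest value (median deviation −0.55). The microglia low was on vehicle 1, where 0 of the 7 lay above their own means (median deviation −0.46). None of the genes of these lists passed limma's test.

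Other markers of pericytes and contractile cells lay on both sides of 0, and whether they differed from the 5 wall genes was not tested. None of them passed limma's test over all tested probe sets. Of 9 tested further pericyte markers, 5 were lower and 4 higher with fluoxetine (median −0.03, against −0.06 for all tested genes, of which 68.5% were lower). After quantile normalization 4 of the 9 were lower (median 0.01), after the median shift 3 were (median 0.03), and without vehicle 3 the median was 0.02. Atp13a5, a transport ATPase gene known as a marker of brain pericytes, had the smallest p of this list. It measured 9.36, 8.95 and 8.79 with fluoxetine and 8.54, 8.56 and 8.74 with vehicle (log2 intensity). It was higher in all 3 fluoxetine arrays, as were 2.83% of all tested probe sets. The difference was 0.42 ± 0.17 (SE; unadjusted p = 0.039), and 0.26 without fluoxetine 1. Ifitm1 differed by 0.20, but by 0.03 without fluoxetine 1. With any 1 array left out, the proteoglycan gene Cspg4 (−0.32) ran from −0.65 to 0.01 and the transcription factor gene Foxf2 (−0.18) from −0.36 to 0.02.

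Of 15 further contractile genes, 9 were lower (median −0.10, and −0.04 under either scaling), and 8 of the 15 had their highest value on vehicle 3. Without that array the median was 0.00. Myl9, the regulatory light chain of smooth muscle myosin, read 10.02, 10.50 and 9.99 with fluoxetine and 10.49, 10.88 and 10.95 with vehicle. Only fluoxetine 2 and vehicle 1 crossed, by a small margin. The difference of Myl9 was −0.61 ± 0.19 (SE; unadjusted p = 0.015), close in size to those of Acta2 and Tagln, and it lay between −0.77 and −0.52 when any 1 array was left out. Itga8, an integrin subunit of contractile cells, was higher by 0.67 ± 0.22 (unadjusted p = 0.019 in limma), and by 0.47 to 0.87 with any 1 array left out. The LIM protein gene Csrp1 was higher by 0.30 ± 0.12 (unadjusted p = 0.036 in limma), and by 0.25 to 0.36. Both had every fluoxetine array above every vehicle array, and 0 of the 15 had the reverse. Over all tested probe sets these shares were 2.83% and 5.23%. The focal adhesion gene Vcl differed by −0.26 ± 0.15 (−0.16 without vehicle 3). A list of SRF, its partners and other factors, such as Foxc1, had 12 tested genes. Of these, 10 were lower with a median of −0.08, but the counts were 6 and 7 after the scalings. Srf itself differed by −0.20 ± 0.12, with fluoxetine below vehicle on every array, and by −0.24 to −0.12 with any 1 array left out. Over the same settings Klf4 (−0.30) ran from −0.61 to −0.11, the SRF coactivator gene Mrtfa (0.25) from 0.11 to 0.47 and Foxc1 (−0.17) from −0.28 to 0.00.

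The ligands and partners of the receptors among the members were examined next, and again none passed. Pdgfb encodes the ligand that endothelial cells send to Pdgfrb. It measured 8.41, 8.17 and 8.04 with fluoxetine and 8.70, 8.68 and 9.02 with vehicle (log2 intensity). All 3 fluoxetine arrays lay below all 3 vehicle arrays, as for 5.23% of all tested probe sets. The difference was −0.59 ± 0.15 (SE; 95% interval −0.95 to −0.23; unadjusted p = 0.0058, adjusted p = 0.999), and it lay between −0.69 and −0.48 when any 1 array was left out. Of the 13 tested PDGF genes 7 were lower (median −0.01, and −0.06 without vehicle 3; 5 and 6 lower after the scalings). Ptpn11, a phosphatase that binds the activated receptor, differed by −0.21, Pdgfra, the receptor of fibroblasts and oligodendrocyte precursors, by 0.29 and the ligand gene Pdgfc by 0.53. Without fluoxetine 1 the values of Pdgfra and Pdgfc were 0.16 and 0.12.

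Of 13 tested genes of the VEGF pathway, 7 were lower (median −0.12, −0.04 and −0.06 after the scalings, and −0.06 without fluoxetine 1 and −0.04 without vehicle 3). Vegfb differed by −0.28 ± 0.20 (SE), but by −0.06 without fluoxetine 1. The adaptor gene Shb differed by −0.24, the hypoxia-responsive factor gene Epas1 by −0.19 (−0.29 to −0.11 with any 1 array left out) and the Notch ligand gene Dll4 by 0.19 (0.10 to 0.25). Of 6 tested angiopoietin pathway genes, 5 were lower (median −0.14), and Angpt1, the activating ligand of Tek, differed by −0.16 ± 0.14, and by −0.27 to −0.08 with any 1 array left out. Grb14 differed by −0.37 (−0.49 to −0.16), Svep1 by 0.28 (0.07 to 0.50) and Foxo1 by −0.14 (−0.23 to −0.04).

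Further endothelial markers also lay on both sides of 0. Of 27 tested, 16 were lower (median −0.03), but the scalings left 11 and 12 lower (medians 0.02 and 0.03), and without vehicle 3 the median was 0.03. Their summed intensity was 34421 to 40735 with fluoxetine and 30910 to 38984 with vehicle. Plvap, the diaphragm protein of leaky endothelium, differed by 0.19 ± 0.11 (SE). Its fluoxetine arrays all lay above its vehicle arrays, as for 2.83% of all tested probe sets. Mfsd2a, a lipid transporter of the blood-brain barrier, stood at 7.99 for fluoxetine 1, and no other array exceeded 6.62. The difference of Mfsd2a, 0.74, was 0.15 without that array. Palmd differed by −0.35, from −0.57 to −0.07 with any 1 array left out, and Car4, a carbonic anhydrase of capillaries, by 0.25, but by 0.05 without fluoxetine 1. Of 10 tight junction partners of Cldn5, 5 were lower (median 0.00, and −0.11 without fluoxetine 1). F11r, the junctional adhesion molecule JAM-A, was higher by 0.33 ± 0.15, while Cldn12 (−0.15), Lsr (−0.21) and Ocln (−0.34) were lower. With any 1 array left out the values were −0.23 to −0.10, −0.35 to −0.03 and −0.54 to −0.02.

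Of 11 tested genes of the basement membrane that encloses pericytes and endothelium, 6 were lower with a median of −0.02 (4 and 5 lower after the scalings; medians of −0.12 without fluoxetine 1 and 0.02 without vehicle 3). Vtn, which is on this list too, and Lamb2, a laminin chain (−0.38 ± 0.13, SE), were lower on every fluoxetine array than on any vehicle array. Nid1, the linker protein nidogen (0.53 ± 0.20), and the collagen chain gene Col4a2 (0.33 ± 0.14) were higher on every one. These 4 of the 11 had an unadjusted p between 0.020 and 0.046, where 2.52% of all tested probe sets had a p under 0.05 and 8.05% had groups that did not overlap. Without fluoxetine 1 Col4a2 differed by 0.22, and Nid1 by as little as 0.32 with 1 array left out.

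**Figure D4:**
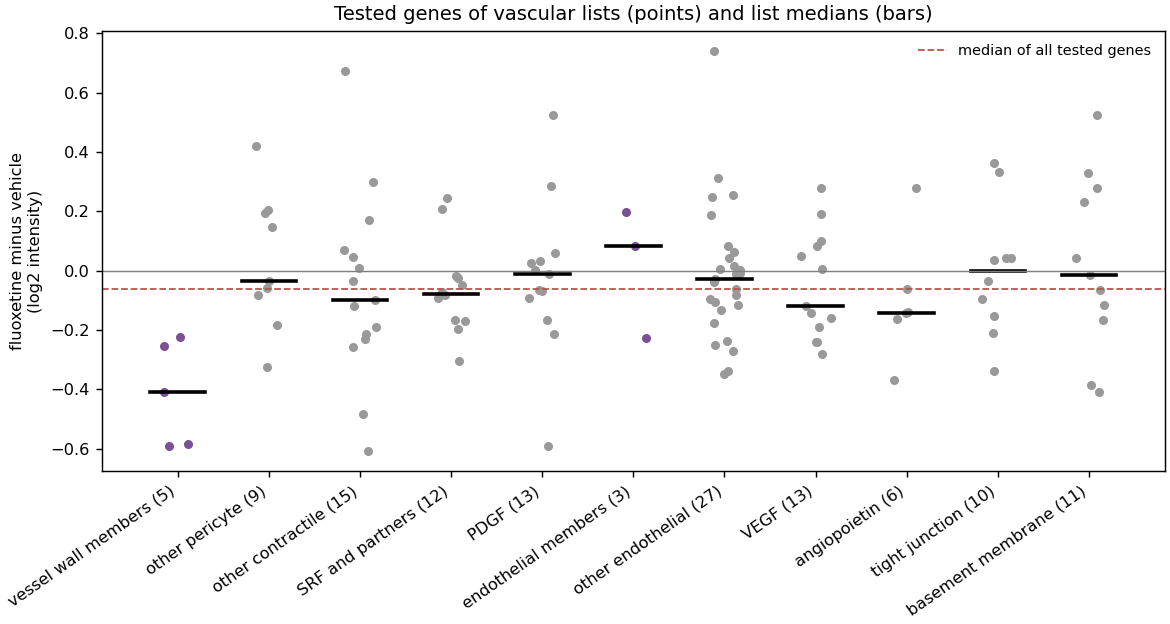
Difference between fluoxetine and vehicle (vertical axis, log2 intensity) for each tested gene of the vascular lists (points, purple for the members; number of genes in brackets), with list medians as black bars and the median of all tested genes as a dashed line. The 5 wall members have a median of −0.41, while the medians of the other lists lie between −0.14 and 0.08.

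The genes most like each class over the 6 arrays were sought among 12240 other tested genes, by the root mean square difference between a gene's deviations from its own mean and the class mean deviations. Fbln5, an elastic fibre protein, was the nearest to the wall at 0.054 (log2), where the wall profile itself had a root mean square of 0.308. It measured 9.36, 10.03 and 9.69 with fluoxetine and 9.79, 10.14 and 10.36 with vehicle. Like the wall mean it was lowest on fluoxetine 1 and highest on vehicle 3. Snhg12 (0.068), Selenbp1 (0.072), Nrtn (0.077) and Gm3715 (0.081) came next. Nearest to the endothelial mean, whose root mean square was only 0.102, were Efemp1 (0.035), Gnai2 (0.035), Cux1 (0.045), Plscr3 (0.045) and P2rx3 (0.045). With so many genes compared over 6 arrays, near matches are common, and these are a description.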

How the data were processed

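TRAP RNA (15 ng per sample) of 6 mouse cortex samples was amplified and hybridised to single-colour Affymetrix arrays, per the labels. Each deposited value is a probe set's intensity on a linear scale. The authors normalized the arrays by GCRMA, as the submitters' processing notes say (version not given in the sources used here). Such values are compressed at low levels, and they hold no read depth, so the number of arrays limits precision. Array controls (64 of 45101 probe sets) were left out. Of the rest, 34945 had 1 symbol, 932 several and 9160 none, and only the first kind named a gene. A RefSeq table (GRCm38.p6) changed 0 symbols and lacked 204, and it supplied the promoters.

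On log2 values without offset, the 22326 probe sets (49.6%) past the filter were tested in limma 3.58.1 (R 4.3.3; lmFit and eBayes, two-sided), and p-values were adjusted over all of them by Benjamini-Hochberg, with a threshold of 0.05. The brightest probe set stood for a gene. The main fit was also tried on 20 simulated sets in which 200 probe sets were changed. It recovered 2.91% of changes of 0.5 in log2, 69.9% of changes of 1 and 98.7% of changes of 2. In these simulated sets most changes of 0.5 thus went uncalled. Noise was drawn independently for each probe set, without deviations shared by the probe sets of an array. Recovery of changes in the real wall genes may therefore differ. The other settings and the class means were not simulated. The labels call the samples biological replicates, and p-values measure only the spread between these samples.

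The members and gene lists were chosen with earlier results of these data known. All members are named, with up to 4 genes per other list by smallest p and the 5 genes nearest each class. Any other name was chosen after its values were seen. Alternatives covered the filter, the offset, quantile and median scaling, the replicate block, limma's variance options, array weights, the choice of probe sets, the threshold, and single arrays left out.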

Additional observations from a re-analysis of the deposited data

How the results depend on the processing

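No probe set passed limma's adjusted threshold in any of the 20 other settings run (0 of those tested in each; smallest adjusted p 0.742), while at an unadjusted p under 0.05 there were 165 higher and 398 lower, or 103 and 247 with the replicate number as a block. The median difference of the wall genes stayed below 0 in all 21 other settings, from −0.54 to −0.10 (−0.54 to −0.29 with any 1 array left out), and wall minus endothelium from −0.52 to −0.17 (−0.52 to −0.34). With all probe sets of the suffixes a_at, s_at and x_at dropped they were −0.10 and −0.17, with 2 of 4 wall genes lower. That setting drops Vtn altogether, leaves Acta2 a probe set under the filter and moves Pdgfrb to its dimmer probe set. Without fluoxetine 1 and vehicle 3 together, a setting chosen after seeing the data, the values were −0.10 and −0.26, with all 5 wall genes still lower. The endothelial median lay within −0.03 to 0.07 with any 1 array left out, and was −0.071 where a mean of 50 was asked of both groups, which leaves 2 genes. Signs turned for Kdr without vehicle 1 (−0.21), the dimmer Pdgfrb probe set without fluoxetine 1 (−0.04) or vehicle 1 (−0.11), and the dimmer Rgs5 probe set without fluoxetine 3 (0.047). With any 1 array left out these ran from −0.21 to 0.24 (0.28 without both arrays), −0.11 to 0.1075 and −0.27 to 0.047. The cause was not tested. With the replicate number as a block, the wall and endothelial medians were −0.41 and 0.07, and no call changed. The unadjusted p in limma was then 0.045 for Acta2, 0.048 for Tagln and 0.049 for the brightest Vtn probe set. Without the block these were 0.105, 0.122 and 0.030. Deviations of same-numbered arrays correlated at −0.25, −0.03 and −0.50. Such correlations cannot tell whether samples of 1 number were handled together. Endothelial intensities near or below 50 limit what could be seen in that class.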

Other observations

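Genes through which vitronectin and vessel tone act, not described above, showed no common direction, and none passed limma's test. Of 5 tested vitronectin receptor and ligand genes, 4 were lower with fluoxetine (median −0.02), but 2 after either scaling, and the median was 0.07 without fluoxetine 1 and 0.02 without vehicle 3. Itgav, the integrin chain that binds vitronectin, differed by −0.16 ± 0.13 (log2, SE; −0.25 to −0.06 with any 1 array left out), Itgb1 by 0.12 (0.06 to 0.15), Itgb5 by −0.09 (−0.31 to 0.03) and Itgb8 by −0.02 (−0.21 to 0.16). Of 12 tested regulators of wall tone, 7 were lower (median −0.04), with 4 and 5 after the scalings and a median of 0.00 without vehicle 3. The sphingosine-1-phosphate receptor genes S1pr1 and S1pr2 differed by 0.29 ± 0.15 (0.16 without fluoxetine 1) and 0.20 ± 0.17 (0.06 to 0.35 with any 1 array left out). The endothelin gene Edn3 differed by −0.29 ± 0.31, but by 0.01 without fluoxetine 1, and the G protein gene Gna12 by −0.07, but by 0.00 without vehicle 3.

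A probe set of Rgs5 under the filter read 11.8 in intensity on fluoxetine 2, 7.42 on fluoxetine 3, 6.18 on fluoxetine 1 and 5.73 to 5.88 on the vehicle arrays. A probe set of Flt1 under the filter read 3.13, 3.16 and 3.10 on the log2 scale with fluoxetine and 3.58, 3.51 and 3.18 with vehicle, all 3 fluoxetine arrays the lower. The reverse held for the Rgs5 probe set just given, for a dim probe set of Acta2 and for that of Pecam1. The share of probe sets under the filter whose groups did not overlap was not counted, so nothing is read from these values.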
